A study of Mus musculus with 12 samples.

Results

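Among cells of the large embryonic arteries that carry a Ly6a-GFP reporter, cluster cells (HC) were compared with endothelial cells (EC). The means compared came from 6 of the 12 RNA-seq libraries of the series, 3 of GFP+ HC and 3 of GFP+ EC. The other 6 libraries, of GFP- HC and GFP- EC, served to ask whether the same comparison came out differently without the reporter, and they also entered the estimate of the spread behind each standard error and p. All embryos were at embryonic day 11.5 on a B6129S background, from C57BL/6 x 129S1/SVImJ F1 mothers and Tg(Ly6a-GFP) fathers, and every group carried the transgene. HC were sorted as CD31+ CD144+ ESAM+ c-Kit+ and EC by those endothelial proteins but as c-Kit-. The dorsal aorta, umbilical and vitelline arteries of 122 embryos gave 53000 GFP+ HC and 377000 GFP+ EC, pooled into 3 biological samples of each, so a library averages many embryos. GFP reports the activity of a Ly6a transgene and not the Sca-1 protein itself.

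Blood-forming cells arise from hemogenic endothelium of the arterial wall, which gives up endothelial identity while the transcription factor RUNX1 switches on blood genes. The new cells round up into intra-arterial clusters that keep endothelial surface proteins and gain the receptor Kit and, later, the leukocyte phosphatase CD45, encoded by Ptprc. Arterial endothelium itself is set by Notch signalling and flow, is coupled by the connexins encoded by Gja4 and Gja5, and lays down the elastic matrix of the vessel wall.

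Expression was given as FPKM, fragments scaled to transcript length and to the mapped total, which keeps no read number, so depth is unknown. In these 6 libraries the FPKM summed to between 555675 and 605093. Genes at FPKM 1 or more numbered between 12453 and 12779 in the HC libraries and between 12147 and 12329 in the EC libraries. Across genes, which are not independent replicates, libraries of the same group correlated at r between 0.961 and 0.975 and HC with EC libraries between 0.915 and 0.955. Mitochondrial genes took between 3.80% and 4.96% of the sum in HC and between 4.66% and 6.47% in EC. Of 33531 genes, 12893 were listed at 0 throughout these 6 libraries, and the 12584 that reached FPKM 1 in 3 or more of them were tested.

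The promoters of 6 genes that mark the ends of the comparison are shown to place the results in the genome. They are 2 complement genes among the largest rises, 2 blood surface genes and the 2 arterial connexins. Each window runs from 250 bases before to 50 bases after the annotated start (RefSeq, build GRCm38.p6), so it holds the proximal promoter and the start of the transcript, and is written on the strand of the gene. C1qb lies at chr4:136886151-136886450 and C1qc at chr4:136892865-136893164, both on the minus strand. Ptprc lies at chr1:138175256-138175555 and Spn at chr7:127137774-127138073, both on the minus strand. Gja5 lies at chr3:97032152-97032451 on the plus strand and Gja4 at chr4:127313990-127314289 on the minus strand. Capitals mark matches to GGAAGT, a core bound by ETS factors, and TGTGGT, a core bound by RUNX factors, on either strand, so that ACTTCC is GGAAGT on the other strand.
C1qb: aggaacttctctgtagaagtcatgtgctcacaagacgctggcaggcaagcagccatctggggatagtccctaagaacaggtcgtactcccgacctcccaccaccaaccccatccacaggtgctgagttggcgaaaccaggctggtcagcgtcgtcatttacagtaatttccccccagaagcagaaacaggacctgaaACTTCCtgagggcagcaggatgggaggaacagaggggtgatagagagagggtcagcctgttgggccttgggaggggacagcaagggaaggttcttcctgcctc
C1qc: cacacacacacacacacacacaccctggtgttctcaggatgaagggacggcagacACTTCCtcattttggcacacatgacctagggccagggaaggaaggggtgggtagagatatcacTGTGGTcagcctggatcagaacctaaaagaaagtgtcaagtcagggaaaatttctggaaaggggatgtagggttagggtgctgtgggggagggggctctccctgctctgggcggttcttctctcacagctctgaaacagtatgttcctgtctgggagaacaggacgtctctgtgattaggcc
Ptprc: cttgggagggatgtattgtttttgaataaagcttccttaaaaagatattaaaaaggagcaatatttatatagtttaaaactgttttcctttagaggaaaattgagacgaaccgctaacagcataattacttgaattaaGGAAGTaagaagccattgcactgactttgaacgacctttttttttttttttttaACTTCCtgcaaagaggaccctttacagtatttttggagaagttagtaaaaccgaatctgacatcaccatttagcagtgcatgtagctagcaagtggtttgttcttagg
Spn: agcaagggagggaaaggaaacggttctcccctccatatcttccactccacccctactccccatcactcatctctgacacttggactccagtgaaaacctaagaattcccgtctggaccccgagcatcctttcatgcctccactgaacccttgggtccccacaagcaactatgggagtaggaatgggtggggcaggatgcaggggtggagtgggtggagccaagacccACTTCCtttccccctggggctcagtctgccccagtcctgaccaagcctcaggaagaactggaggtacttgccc
Gja5: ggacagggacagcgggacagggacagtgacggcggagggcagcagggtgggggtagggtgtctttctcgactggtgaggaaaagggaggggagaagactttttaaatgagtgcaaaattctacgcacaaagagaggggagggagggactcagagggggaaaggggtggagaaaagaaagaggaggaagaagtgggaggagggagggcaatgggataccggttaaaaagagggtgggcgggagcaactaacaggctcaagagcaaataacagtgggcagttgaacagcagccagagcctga
Gja4: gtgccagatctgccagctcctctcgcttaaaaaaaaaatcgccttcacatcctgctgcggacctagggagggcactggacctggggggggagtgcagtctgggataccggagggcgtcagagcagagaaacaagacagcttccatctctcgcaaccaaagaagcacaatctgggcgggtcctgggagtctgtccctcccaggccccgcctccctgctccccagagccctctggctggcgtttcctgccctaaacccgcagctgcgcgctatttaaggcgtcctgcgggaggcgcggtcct
GGAAGT was found at 53 bases upstream of the start in C1qb, 195 in C1qc, 112 and 58 in Ptprc and 23 in Spn, counted to the first base of the match. TGTGGT was found only in the C1qc window among these 6, at 132 bases upstream. Over all 27025 listed promoters of this length, 24.1% held GGAAGT and 16.9% held TGTGGT. Neither connexin window held these cores or AGATAA (11.4% of promoters; a core of GATA factors), CACGTG (7.24%; an E-box read by Hey and other factors) or ACAATG (12.8%; a core of SOX factors), searched on both strands, and no overlap between these motifs occurs in the windows shown. A match describes letters and is not a measured binding site. The Gja4 window held 16 CpG dinucleotides and a GC content of 62%, against 4 and 33.7% for Ptprc.

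The marker genes followed the sort. Kit, on whose protein the cells were divided, was at 34.2, 39.2 and 33.2 FPKM in the HC libraries and 13.3, 14.5 and 14.2 in EC, a log2 difference of 1.28 ± 0.15 (SE, n = 3 per group; adjusted p = 0.000299). Since c-Kit was a sorting gate, this value checks the labels and is no finding. Kit mRNA was therefore present in the c-Kit- cells as well, at a lower level. Ptprc was at 9.75, 7.97 and 13.2 FPKM in HC and 0.292, 0.506 and 0.624 in EC, and it was higher in HC by 2.92 ± 0.29 (adjusted p = 0.000104). Runx1, the master regulator of blood emergence, was at 12.6, 13.1 and 16.1 FPKM in HC and 0.937, 0.913 and 1.22 in EC, higher by 2.88 ± 0.27 (adjusted p = 6.94e-05). Every HC library lay above every EC library for all 3 genes. Within HC, Ptprc was lowest in replicate 2 and highest in replicate 3, the order of the macrophage genes described below. All values given as differences here are HC minus EC on the log2(FPKM + 1) scale, which understates changes of low genes, with limma's standard error.

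The endothelial gate genes remained abundant in HC. Pecam1, encoding CD31, was at 255, 283 and 272 FPKM in HC and 439, 421 and 414 in EC, lower by 0.65 ± 0.11 on the log2 scale (-0.65, adjusted p = 0.00274). Cdh5, encoding CD144, the cadherin of endothelial junctions, was at 454, 489 and 430 FPKM in HC against 705, 740 and 693 in EC (-0.64, adjusted p = 0.00704). Esam was at 166, 186 and 174 FPKM against 254, 275 and 257 (-0.58, adjusted p = 0.0171), a call that ended without HC replicate 1 or without EC replicate 2 (-0.54 in both). The connexins showed a larger gap. Gja5 was at 25.6, 32.0 and 43.8 FPKM in HC and 261, 271 and 277 in EC, so the EC mean was 7.97-fold higher (-2.99 ± 0.17, adjusted p = 4.25e-06). Gja4 was at 19.3, 22.7 and 27.3 FPKM against 172, 200 and 186 (-2.97 ± 0.14, adjusted p = 1.9e-06). Ly6a, encoding Sca-1, was at 6.83, 7.09 and 3.57 FPKM in HC and 8.82, 8.42 and 9.05 in EC. The groups did not overlap, but the difference of -0.56 ± 0.36 missed the threshold (adjusted p = 0.348).

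**Figure D1:**
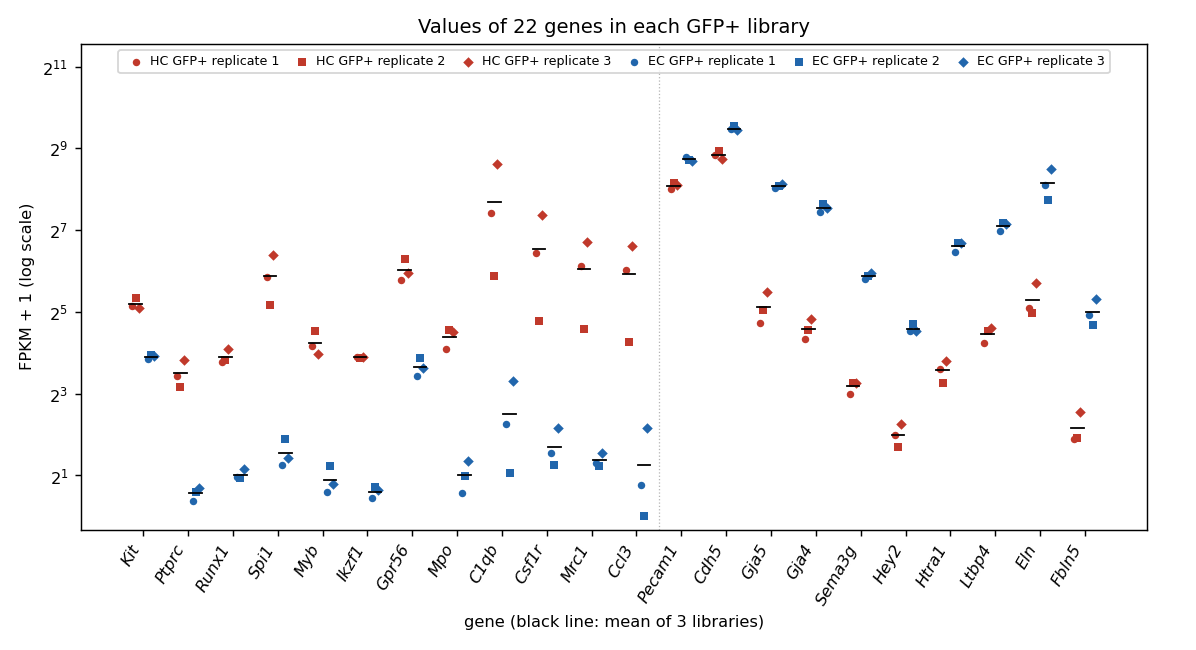
FPKM + 1 on a log2-spaced axis for 22 genes (x axis) in each HC GFP+ library (red) and EC GFP+ library (blue), with symbols for the replicate and a black line at the mean of 3 libraries. For the 12 genes left of the dotted line every HC library lies above every EC library, and for the 10 genes right of it every HC library lies below.

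Over all genes, 1079 were higher in HC (8.57% of those tested) and 822 lower (6.53%) at an adjusted p of 0.05 in limma, with 3618 genes at an unadjusted p under 0.05. The median of all tested genes was 0.05. The rises were larger than the falls: 299 of the higher genes (27.7%) differed at least 4-fold in mean FPKM against 59 of the lower genes (7.18%), and the medians of the called genes were 0.73 and -0.62. Of the higher genes, 225 (20.9%) had an EC mean under 1 FPKM, while 43 of the lower genes (5.23%) had an HC mean under 1 FPKM. With the spread taken from the 6 GFP+ libraries alone, 837 were higher and 743 lower. Of the calls, 56.8% were higher in HC. Quantile normalization of the libraries turned this split around, with 965 higher and 1104 lower (46.6% higher). In bulk samples, fewer cells of a type and less RNA per cell cannot be told apart.

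**Figure D2:**
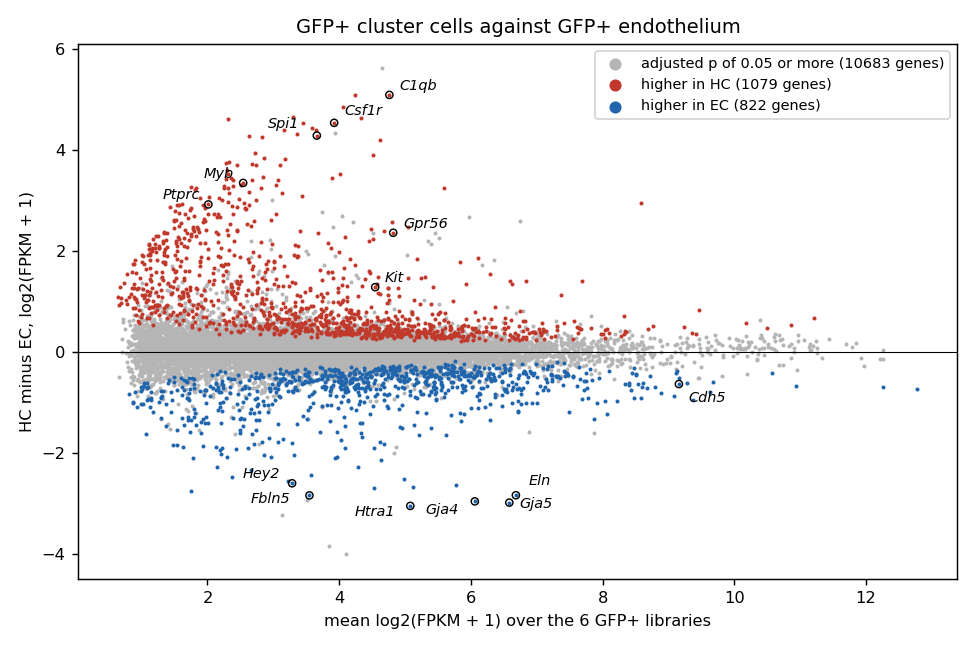
Difference HC minus EC (y axis, log2(FPKM + 1)) against the mean level of a gene over the 6 GFP+ libraries (x axis, log2(FPKM + 1)), 1 point per tested gene, red for the 1079 genes higher in HC, blue for the 822 lower and grey for the rest. Circles and names mark genes discussed in the text, with C1qb at 5.09 near the top and Htra1 at -3.06 near the bottom of the called genes.

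The 10 largest rises among genes of a mean FPKM of 5 or more in HC were C1qb, C1qc, Tyrobp, Ccl3, C1qa, Csf1r, Fcrls, Mrc1, F13a1 and Fcgr3, between 5.09 and 4.39. C1qa, C1qb and C1qc encode the chains of complement C1q, Csf1r the receptor that macrophages need for survival, Mrc1 the mannose receptor, Fcgr3 an Fc receptor, and Tyrobp the adaptor DAP12. C1qb was at 171, 58.2 and 389 FPKM in HC and 3.80, 1.09 and 9.002 in EC (5.09 ± 0.71, adjusted p = 0.000916). Csf1r was at 85.8, 26.3 and 164 FPKM against 1.92, 1.39 and 3.47 (4.54 ± 0.58, adjusted p = 0.00051). Mrc1 was at 68.8, 22.9 and 104 FPKM against 1.48, 1.36 and 1.95 (4.44 ± 0.51, adjusted p = 0.000296). In each of these genes HC replicate 2 was lowest and replicate 3 highest, and the spread within HC was several-fold. That the groups did not overlap was part of the rule by which these genes were chosen.

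Macrophage genes as a list behaved alike. Of 22 members, 21 were higher in HC and 0 lower, with a median difference of 3.78, where 8.57% of all genes were higher and the median of all genes was 0.05. Emr1, encoding the macrophage antigen F4/80, was at 32.0, 10.4 and 54.0 FPKM in HC and 0.420, 0.0937 and 0.800 in EC. The microglial and macrophage chemokine receptor gene Cx3cr1 was at 28.5, 7.79 and 47.1 FPKM against 0.696, 0.336 and 1.44. The summed level of the list (mean log2(FPKM + 1) of its tested members) was 5.203, 3.90 and 6.07 in the HC libraries and 1.39, 1.20 and 1.92 in the EC libraries. None of the 22 genes was at 0 in all 6 libraries. Leaving out 1 library at a time kept 20 or 21 members higher, and without HC replicate 3 the median was 3.23.

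The spread of the macrophage list between HC libraries had the same order in nearly every member: 20 of 22 (90.9%) were lowest in replicate 2, intermediate in replicate 1 and highest in replicate 3. That order held for 526 of the 1079 higher genes (48.7%) and for 22.7% of all tested genes. The median ratio of replicate 3 to replicate 2 was 5.55 over the macrophage list, 1.18 over the higher genes and 1.01 over all tested genes. It was 2.57 for interferon response genes, 2.18 for granulocyte and monocyte genes, 1.88 for inflammatory genes of the NF-kB pathway, 1.66 for blood cell signalling adaptors and 1.47 for hematopoietic surface proteins. Outside the blood and immune lists it was 2.62 for 5 yolk sac endoderm and liver genes, 1.61 for epithelial and mesonephric genes, 1.35 for dissociation stress genes and 1.25 for smooth muscle and mesenchyme genes. It was 0.891 for hematopoietic transcription factors and 0.910 for pan-endothelial genes. The part of the macrophage genes in the results of the blood gene lists below was not tested, and the number of members with this order, called the macrophage order, is given beside each list.

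**Figure D3:**
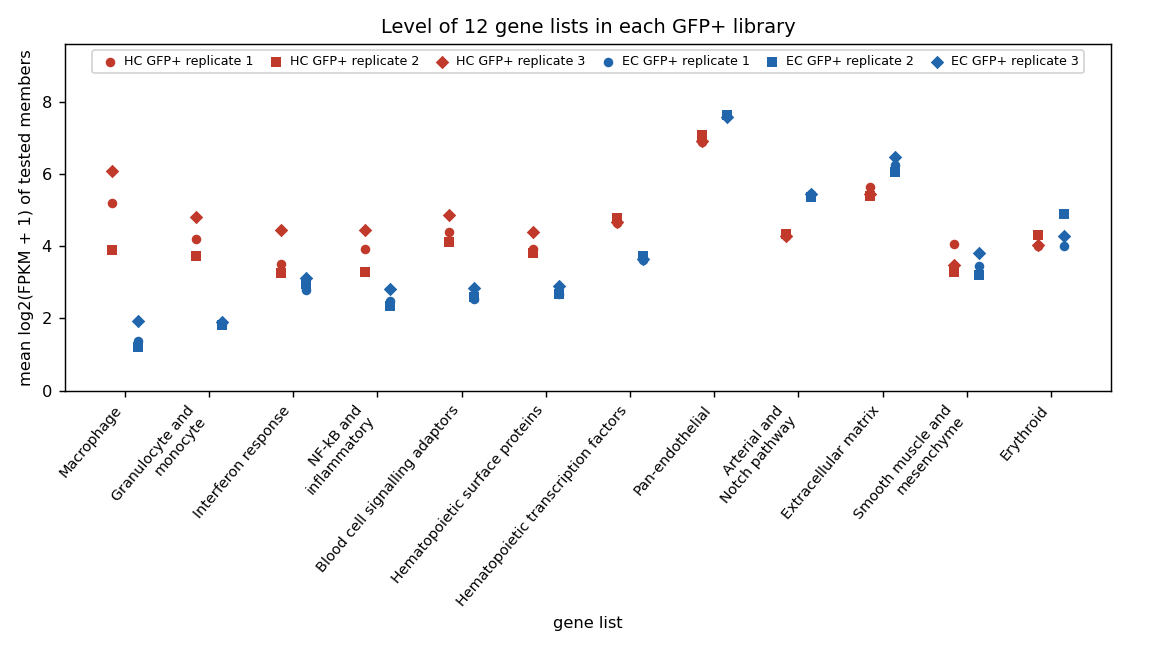
Mean log2(FPKM + 1) over the tested members (y axis) of 12 gene lists (x axis) in each HC GFP+ library (red) and EC GFP+ library (blue), with symbols for the replicate. The HC libraries spread from 3.90 to 6.07 for macrophage genes and only from 4.64 to 4.78 for hematopoietic transcription factors, and HC lie below EC for pan-endothelial, arterial and matrix genes.

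Of 25 tested hematopoietic transcription factors, 10 were higher in HC, 1 was lower and 14 did not pass the test (median 0.44), and the counts were the same after leaving out any 1 of the 6 libraries. Every HC library lay above every EC library for 14 of the 25, against 20.0% of all tested genes, and below for 4, against 14.3%. Of the 25, 5 had the macrophage order, against 22.7% of all tested genes. Ikzf1, encoding the lymphoid and stem cell regulator Ikaros, was at 13.9, 13.7 and 13.998 FPKM in HC and 0.360, 0.641 and 0.560 in EC (3.30 ± 0.19, adjusted p = 4.25e-06). Myb, which definitive but not primitive blood needs, was at 16.9, 22.1 and 14.6 FPKM against 0.513, 1.34 and 0.720 (3.35 ± 0.20, adjusted p = 5.09e-06). Ikzf1 was nearly flat over the HC libraries and Myb was highest in replicate 2, so neither had the order of the macrophage genes. Spi1, encoding the myeloid regulator PU.1, was at 56.3, 35.1 and 83.3 FPKM against 1.38, 2.68 and 1.67 (4.29 ± 0.37, adjusted p = 4.4e-05), lowest in replicate 2 and highest in replicate 3. Cebpa, a granulocyte and monocyte factor, had that order too, at 8.21, 2.71 and 12.9 FPKM against 0.545, 0.602 and 0.653 (2.29, adjusted p = 0.00376).

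Further factors were chosen for naming after their values were seen. Gfi1, a repressor that silences endothelial genes in emerging blood cells, was at 11.3, 24.2 and 13.8 FPKM in HC and 1.87, 4.69 and 2.30 in EC (2.14, adjusted p = 0.000865). Hlf, a factor of stem cells, was at 7.45, 10.1 and 5.95 FPKM against 0.779, 3.85 and 0.445 (1.90, adjusted p = 0.00618). Nfe2, a megakaryocyte and erythroid factor, was at 11.7, 18.7 and 17.6 FPKM against 3.44, 2.64 and 4.44 (1.91, adjusted p = 0.00233). Mecom, encoding the stem cell factor EVI1, was the member that was lower, at 22.7, 25.9 and 22.5 FPKM in HC and 41.4, 38.5 and 38.8 in EC (-0.72 ± 0.11, adjusted p = 0.00126).

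Factors that blood and endothelium share were among the 14 that did not pass. Gata2, needed for stem cell emergence, was at 28.3, 29.9 and 27.2 FPKM in HC and 35.9, 35.8 and 34.4 in EC (-0.30, adjusted p = 0.125). Tal1, a basic helix-loop-helix factor of hemangiogenic cells, was at 20.6, 23.5 and 20.3 FPKM against 23.9, 23.9 and 23.2 (-0.14, adjusted p = 0.401). Lmo2, its partner, was at 116, 131 and 143 FPKM against 167, 150 and 150 (-0.26, adjusted p = 0.145). The ETS factor genes Erg and Fli1 gave -0.16 (adjusted p = 0.613) and -0.10 (adjusted p = 0.537), with overlapping groups. For Gata2 and Lmo2 every HC library lay below every EC library. None of these 5 passed the test, which does not show that their levels were equal.

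Surface proteins, cytokine receptors and signalling adaptors of blood cells were higher in HC in most members. Of 23 hematopoietic surface protein genes, 16 were higher and 2 lower (median 1.54), with 4 lower without HC replicate 2, and 12 of the 23 had the macrophage order (22.7% of all tested genes had it). Spn, encoding CD43, was at 9.08, 11.5 and 9.01 FPKM in HC and 1.93, 2.37 and 1.52 in EC (1.89 ± 0.15, adjusted p = 2.78e-05). Gpr56, an adhesion receptor of stem cells, was at 53.5, 77.4 and 60.3 FPKM against 9.80, 13.6 and 11.3 (2.36 ± 0.19, adjusted p = 2.78e-05). In these genes HC replicate 2 was the highest library, unlike the 12 members in the macrophage order, Ptprc among them. Cxcr4, encoding the receptor of the homing chemokine CXCL12, went the other way, at 7.62, 5.57 and 11.2 FPKM in HC and 26.8, 32.5 and 27.8 in EC (-1.76 ± 0.19, adjusted p = 0.000183).

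Of 19 cytokine receptor genes, 11 were higher and 2 lower (median 1.28), and 7 had the macrophage order. Kit, on which the cells were sorted, is among the 11, and the median is its value. The lower count was 0 without EC replicate 1 and 1 without HC replicate 3 or EC replicate 3. Flt3, encoding a receptor of multipotent progenitors, was at 2.68, 3.70 and 3.10 FPKM in HC and 0.0943, 0.0635 and 0.128 in EC (1.92 ± 0.15, adjusted p = 2.78e-05). Csf2rb, the shared chain of the GM-CSF and IL-3 receptors, was at 5.44, 3.55 and 8.21 FPKM against 0.589, 0.354 and 0.603 (2.10, adjusted p = 0.000448), in the macrophage order. Il6st, encoding gp130, was lower, at 23.0, 20.7 and 21.8 FPKM against 28.3, 26.7 and 26.9 (-0.31, adjusted p = 0.013; -0.28 and not called without EC replicate 1). Lifr, encoding the receptor of leukemia inhibitory factor and named after its values were seen, was the other lower member, at 12.1, 12.3 and 9.82 FPKM against 16.7, 15.1 and 16.1 (-0.45, adjusted p = 0.0239). Its call ended without HC replicate 3 (-0.36), EC replicate 1 (-0.42) or EC replicate 3 (-0.45).

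Of 32 signalling adaptors and cytoskeletal genes of blood cells, 28 were higher and 1 lower (median 2.22), and 23 had the macrophage order. Rac2, a small GTPase of blood cells, was at 24.7, 17.1 and 43.0 FPKM in HC and 0.700, 0.459 and 1.82 in EC (3.84 ± 0.37, adjusted p = 8.73e-05). Dock2, a guanine exchange factor of leukocyte migration, was at 8.69, 8.08 and 11.6 FPKM against 0.319, 0.695 and 0.716 (2.72 ± 0.26, adjusted p = 7.25e-05). Rac2 and Dock2 both had the macrophage order. Gmfg, an actin regulator of blood cells, was at 83.1, 98.7 and 109 FPKM against 39.5, 37.2 and 34.8 (1.35 ± 0.10, adjusted p = 1.63e-05). The lower member was Itpkb, an inositol phosphate kinase, at 24.1, 24.9 and 22.6 FPKM against 34.0, 30.7 and 33.5 (-0.44, adjusted p = 0.0291), a call that ended without HC replicate 1 or 3 or EC replicate 1 or 3 (-0.45, -0.40, -0.41 and -0.42).

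Lineage genes differed by lineage. Of 14 granulocyte and monocyte genes, 10 were higher and 0 lower (median 2.42), and 10 of the 14 had the macrophage order. Mpo, the primary granule peroxidase, was at 15.9, 22.6 and 21.7 FPKM in HC and 0.496, 0.976 and 1.57 in EC (3.41 ± 0.25, adjusted p = 1.89e-05), with HC replicates 2 and 3 alike. Lyz2, the lysozyme of macrophages and neutrophils, was at 82.6, 50.7 and 155 FPKM against 3.38, 6.04 and 5.67 (3.89 ± 0.40, adjusted p = 0.000126), in the macrophage order. Of 13 erythroid genes, 0 had the macrophage order, 0 were higher and 1 lower (7.69%, against 6.53% of all genes). The lower gene was Add2, a membrane skeleton gene, at 1.97, 3.03 and 1.87 FPKM against 4.13, 4.01 and 4.47 (-0.68, adjusted p = 0.013). Without HC replicate 1 it was not called (-0.61). The embryonic globin Hbb-y, which can share reads with other globin genes, was at 501, 663 and 601 FPKM in HC and 608, 1391 and 688 in EC (-0.51, adjusted p = 0.354). EC replicate 2 stood apart for it, and the erythroid median of -0.41 became -0.02 without that library.

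Of 20 megakaryocyte and platelet genes, 3 were higher (15%) and 1 lower (5%), and 2 had the macrophage order. Over all tested genes these shares were 8.57%, 6.53% and 22.7%. Selp, encoding P-selectin, was at 3.11, 1.99 and 2.50 FPKM in HC against 0.872, 0.404 and 0.416 in EC (1.18, adjusted p = 0.00193). Plek, the platelet kinase substrate pleckstrin, was at 23.2, 11.2 and 30.3 FPKM against 3.53, 1.10 and 11.1 (2.11, adjusted p = 0.0348), and the call was lost without HC replicate 1 (2.01), HC replicate 3 (1.82), EC replicate 1 (2.06) or EC replicate 2 (1.504). Vwf, which endothelium also makes, was lower, at 162, 164 and 197 FPKM against 388, 441 and 403 (-1.24 ± 0.14, adjusted p = 0.000222).

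Of 9 tested lymphoid genes, 3 were higher (33.3%) and 1 lower (11.1%), against 8.57% and 6.53% of all genes. Of the 9, 2 had the macrophage order, and 4 other listed genes were at 0 in all 6 libraries. Besides Flt3, the higher genes were Cd79b and Ighm. Cd79b, a B cell receptor chain, was at 7.67, 7.33 and 13.1 FPKM in HC against 3.90, 5.08 and 3.71 in EC (0.95, adjusted p = 0.00763). Ighm, the IgM heavy chain gene, was at 20.9, 5.58 and 43.5 FPKM against 0.396, 0.0999 and 0.656 (3.77 ± 0.60, adjusted p = 0.0018). Its HC libraries had the macrophage order, with replicate 2 lowest and replicate 3 highest. Gata3 was lower, at 2.96, 3.32 and 1.55 FPKM against 4.66, 4.94 and 4.57 (-0.70, adjusted p = 0.0356), and the call stood without HC replicate 2 and ended without any other of the 6 libraries (-0.78 to -0.47). Of 4 tested mast cell and basophil genes only Kit, the sorting gene, was higher and 1 had the macrophage order, and 4 others were at 0 in all 6 libraries.

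**Figure D4:**
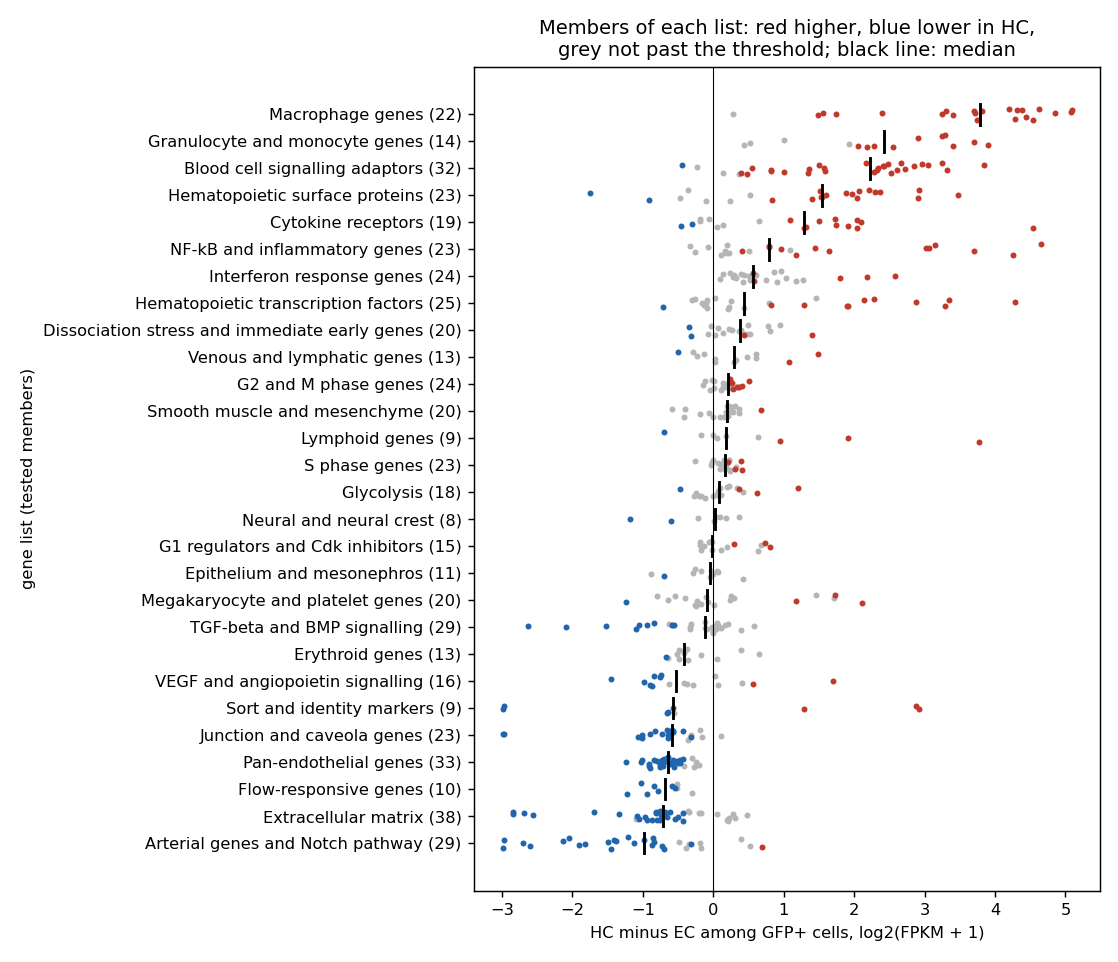
Difference HC minus EC among GFP+ cells (x axis, log2(FPKM + 1)) for each tested member of the gene lists with at least 8 tested members (y axis, number in brackets), red higher, blue lower, grey not past the threshold, with a black line at the median. Medians run from 3.78 for macrophage genes to -0.98 for arterial and Notch genes.

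Endothelial genes were lower in HC. Of 33 pan-endothelial genes, 27 were lower and 0 higher, where 6.53% of all genes were lower, and the median was -0.64. Their level was 6.90, 7.08 and 6.92 in the HC libraries and 7.60, 7.64 and 7.57 in EC. Leaving out 1 library gave 20 to 27 lower. The gate genes Pecam1, Cdh5 and Esam are among the 27, and the median is the value of Cdh5. Mmrn2, an endothelial matrix glycoprotein, was at 87.9, 96.2 and 82.9 FPKM in HC and 184, 182 and 177 in EC (-1.02 ± 0.14, adjusted p = 0.000833). Nos3, the endothelial nitric oxide synthase, was at 49.6, 60.7 and 51.5 FPKM against 108, 121 and 104 (-1.03 ± 0.14, adjusted p = 0.0009). Cd34, a sialomucin of endothelium and progenitors, was at 246, 295 and 296 FPKM against 535, 508 and 534 (-0.92 ± 0.14, adjusted p = 0.00122). All 3 genes were lower in HC with no overlap, and all were still abundant there.

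Arterial and Notch genes had the lowest median of the lists, -0.98, with 21 of 29 lower and 1 higher. The ligand genes Dll4 and Jag1 were at 10.9, 14.5 and 12.8 FPKM in HC against 48.1, 46.6 and 47.4 in EC (-1.82, adjusted p = 4.4e-05), and at 16.8, 17.3 and 17.4 FPKM against 49.8, 46.4 and 54.4 (-1.49, adjusted p = 2.78e-05), respectively. The receptor gene Notch1 was at 23.5, 27.6 and 21.1 FPKM against 47.9, 40.4 and 45.0 (-0.86, adjusted p = 0.00442). Rbpj, encoding the DNA-binding partner of all Notch receptors, was the member that was higher in HC, at 23.7, 17.05 and 22.6 FPKM against 12.8, 11.5 and 13.6 (0.69 ± 0.14, adjusted p = 0.00597). Among the targets, Hey1 was at 9.33, 11.1 and 12.2 FPKM against 56.3, 47.2 and 50.1 (-2.14, adjusted p = 7.67e-06). Hey2, its close relative, was at 2.96, 2.23 and 3.82 FPKM against 22.1, 25.1 and 22.1 (-2.61 ± 0.20, adjusted p = 2.5e-05). The ligands, receptor and targets named here were thus lower in HC and Rbpj was not.

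Other arterial genes followed. Sox17, an arterial and hemogenic factor, was at 32.2, 45.7 and 33.4 FPKM in HC and 86.2, 91.3 and 81.8 in EC (-1.22, adjusted p = 0.00301). The guidance receptor gene Unc5b was at 10.9, 11.2 and 10.9 FPKM against 45.4, 40.9 and 45.5 (-1.91 ± 0.11, adjusted p = 4.25e-06), and the semaphorin gene Sema3g was at 6.93, 8.63 and 8.62 FPKM against 55.1, 57.9 and 60.6 (-2.70 ± 0.16, adjusted p = 5.09e-06). Dll4, Jag1, Notch1, Hey1 and Sox17 were chosen for naming after their values were seen. Of 13 venous and lymphatic genes, 2 were higher (15.4%) and 1 lower (7.69%), against 8.57% and 6.53% of all genes. The higher count was 1 without any 1 library other than HC replicate 2. Lyve1, which lymphatic cells and macrophages express, was at 39.9, 27.2 and 55.4 FPKM in HC against 13.4, 12.8 and 13.99 in EC (1.48, adjusted p = 0.00443), in the macrophage order. Ephb4, the venous receptor of ephrin-B2, was lower, at 133, 138 and 126 FPKM against 189, 198 and 174 (-0.50, adjusted p = 0.0136; -0.45 and not called without EC replicate 2).

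Growth factor pathways of the vessel wall were lower in part. Of 16 VEGF and angiopoietin genes, 7 were lower (43.8%) and 2 higher (12.5%), against 6.53% and 8.57% of all genes. Vegfc, a ligand of lymphatic and venous growth, was at 17.9, 23.7 and 19.6 FPKM in HC and 58.1, 49.0 and 64.9 in EC (-1.45 ± 0.15, adjusted p = 0.000108). Nrp1, a VEGF co-receptor, was at 51.5, 50.6 and 46.6 FPKM against 93.0, 91.0 and 90.0 (-0.87 ± 0.08, adjusted p = 5.36e-05). Angpt1, the ligand of TIE2, was higher in HC, at 7.99, 8.47 and 6.14 FPKM against 1.59, 1.73 and 1.49 (1.70 ± 0.26, adjusted p = 0.00136).

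Of 29 TGF-beta and BMP genes, 9 were lower (31.0%, against 6.53% of all genes) and 0 higher, with a median of -0.12. The ligand gene Bmp6 was at 0.996, 1.65 and 1.55 FPKM in HC and 8.91, 7.38 and 11.4 in EC (-2.09 ± 0.17, adjusted p = 3.08e-05). The inhibitor gene Smad6 was at 17.7, 17.5 and 16.9 FPKM against 52.6, 53.5 and 48.9 (-1.52 ± 0.11, adjusted p = 1.55e-05). Id1, a direct BMP target, was at 47.3, 51.6 and 49.8 FPKM against 118, 108 and 96.8 (-1.10 ± 0.10, adjusted p = 4.4e-05). Ltbp4, which anchors latent TGF-beta in elastic fibres, was at 17.9, 22.01 and 23.4 FPKM against 125, 142 and 140 (-2.64 ± 0.16, adjusted p = 5.09e-06).

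Matrix genes of the vessel wall held several of the largest falls. The 10 largest were Htra1, Gja5, Gja4, Fbln5, Eln, Gkn3, Sema3g, Fbln2, Ltbp4 and Hey2, between -3.06 and -2.61. Htra1, a secreted serine protease, was at 11.2, 8.51 and 13.0 FPKM in HC and 86.6, 102 and 102 in EC (-3.06 ± 0.19, adjusted p = 7.19e-06). Eln, encoding elastin, was at 33.1, 30.5 and 51.5 FPKM against 272, 211 and 360 (-2.84 ± 0.32, adjusted p = 0.000237). Fbln5, needed to assemble elastic fibres, was at 2.72, 2.78 and 4.90 FPKM against 29.4, 24.8 and 38.6 (-2.85 ± 0.24, adjusted p = 3.93e-05). Of 38 extracellular matrix genes, 26 were lower and 0 higher, with a median of -0.71, and leaving out 1 library gave 21 to 25 lower. Fn1, encoding fibronectin, was at 160, 140 and 137 FPKM against 361, 351 and 397 (-1.34 ± 0.15, adjusted p = 0.000209). Vcan, encoding the proteoglycan versican, had the largest positive difference of the list but overlapping groups (0.47 ± 0.90, adjusted p = 0.775).

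Genes of junctions, caveolae and the flow response were lower in most members. Of 23 junction and caveola genes, 17 were lower and 0 higher (median -0.59), the connexins among them. The lower count was 13 to 17 after leaving out 1 library. Ptrf, encoding the caveolar coat protein cavin-1, was at 74.1, 83.1 and 81.2 FPKM in HC and 175, 142 and 170 in EC (-1.01 ± 0.12, adjusted p = 0.000336). Of 10 flow-responsive genes, 7 were lower and 0 higher (median -0.69). Aqp1, a water channel of arterial endothelium, was at 21.8, 26.7 and 27.3 FPKM against 59.999, 61.3 and 58.6 (-1.22 ± 0.17, adjusted p = 0.000771). Thbd, encoding thrombomodulin, was at 40.0, 42.7 and 41.9 FPKM against 63.4, 61.9 and 63.7 (-0.59 ± 0.08, adjusted p = 0.00102).

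Cell cycle genes differed little. Of 24 G2 and M phase genes, 8 were higher and 0 lower (33.3% against 8.57% of all genes), with a median of 0.21, and the count was 3 or 4 after leaving out any 1 of the 6 libraries except EC replicate 2, which gave 6. Ube2c, which ends mitosis, was at 184, 179 and 202 FPKM in HC and 123, 136 and 137 in EC (0.51 ± 0.08, adjusted p = 0.00192). Of 23 S phase genes, 4 were higher (17.4%, against 8.57% of all genes) and 0 lower (median 0.16). After leaving out 1 library, 1 or 2 remained past the threshold. Prim1, a primase subunit, was at 31.7, 34.5 and 31.9 FPKM against 26.3, 22.8 and 24.4 (0.40 ± 0.07, adjusted p = 0.00396). Among 15 regulators of G1, 3 were higher (20%, against 8.57% of all genes), and the count was 1 without HC replicate 1 or without EC replicate 2. Mycn was at 35.9, 43.6 and 36.7 FPKM in HC and 21.5, 20.7 and 23.2 in EC (0.80 ± 0.12, adjusted p = 0.0012).

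Inflammatory genes were higher in HC with the spread of the macrophage genes. Of 23 genes of the NF-kB pathway, 13 were higher and 0 lower (median 0.79), and 19 had the macrophage order. The higher count was 14 without HC replicate 2, 8 without EC replicate 2 and 9 without any 1 other of the 6 libraries. Ccl3 was at 63.7, 18.1 and 96.3 FPKM in HC and 0.694, 0 and 3.44 in EC, and the neighbouring chemokine gene Ccl4 was at 35.4, 11.9 and 63.1 FPKM against 0.503, 0 and 1.87. Of 24 interferon response genes, 5 were higher (20.8%, against 8.57% of all genes) and 0 lower (median 0.57), and 19 had the macrophage order. The count moved to 10 without HC replicate 2 and to 2 without HC replicate 3 or EC replicate 1. It was 3 without EC replicate 2 or 3. Ifitm1, an interferon-induced membrane protein gene, was at 54.3, 75.2 and 74.1 FPKM in HC against 9.12, 11.003 and 11.2 in EC (2.58 ± 0.45, adjusted p = 0.00309). Psmb8, an immunoproteasome subunit, was at 11.9, 7.31 and 30.3 FPKM against 1.81, 1.56 and 3.97 (2.18 ± 0.49, adjusted p = 0.0116).

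Of 18 glycolysis genes, 3 were higher (16.7%) and 1 lower (5.56%), against 8.57% and 6.53% of all genes. Hk2, a hexokinase, was at 6.72, 4.85 and 8.18 FPKM in HC and 2.49, 2.0005 and 2.20 in EC (1.21 ± 0.19, adjusted p = 0.00189). Slc2a1, the glucose transporter, was lower, at 112, 133 and 132 FPKM against 181, 178 and 162 (-0.47, adjusted p = 0.0235), a call that ended without HC replicate 1 (-0.38), EC replicate 1 (-0.44) or EC replicate 2 (-0.45). Of 20 immediate early and dissociation stress genes, 2 were higher and 2 lower (10% each), against 8.57% and 6.53% of all genes. Higher genes numbered 5 without HC replicate 2 and 1 without any other of the 6 libraries, and lower genes 0 or 1. The macrophage order held for 13 of the 20. Zfp36, an mRNA decay factor, was at 156, 99.0 and 248 FPKM against 49.4, 64.4 and 62.8 (1.40 ± 0.29, adjusted p = 0.00821), in the macrophage order. Markers of other tissues that a sort could carry were counted too, beside 8.57% of all genes higher and 6.53% lower. Cells carried alike into both groups would not appear in these counts. Of 20 smooth muscle and mesenchyme genes, 1 was higher (Thy1, at 0.67) and 0 lower. The call ended without HC replicate 2 (0.55), without EC replicate 2 (0.58) and with the 6 libraries alone, and quantile normalization gave 0 higher and 1 lower. The level of this list was 4.06, 3.27 and 3.47 in HC and 3.45, 3.21 and 3.82 in EC. Of 11 epithelial and mesonephric genes 1 was lower, Gata3, whose call stood without HC replicate 2 and ended without any other of the 6 libraries, as given above. Of 5 yolk sac endoderm and liver genes 0 passed the test, with 1 higher without HC replicate 2. Of 8 neural genes 2 were lower (25%, against 6.53% of all genes). They were Nes, which endothelium also expresses and whose call ended without EC replicate 1 (-0.54), and Stmn2, a neuronal microtubule gene, at 64.8, 67.7 and 75.5 FPKM in HC and 154, 179 and 142 in EC (-1.18 ± 0.11, adjusted p = 6.02e-05).

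The same contrast was then taken among GFP- cells, where 312 genes were higher in HC (2.48% of those tested) and 261 lower (2.07%). The means of the 2 contrasts came from separate libraries, while 1 estimate of the spread over all 12 libraries served both. Of the genes higher in GFP+ HC, 238 were also higher in GFP- HC, 22.1% of the GFP+ list and 76.3% of the GFP- list. Of the lower genes 167 were shared, 20.3% and 64.0% of the lists. The gene called in opposite directions was St6gal1, a sialyltransferase, lower in GFP+ HC (-0.41) and higher in GFP- HC (0.53). Its difference between the contrasts was -0.94 (adjusted p = 0.0159) and missed the threshold without GFP+ HC replicate 2 (-0.88), GFP+ EC replicate 1 (-0.91) or 3 (-0.95), or GFP- HC replicate 3 (-0.93). Its GFP+ call ended without HC replicate 1 or 2 or EC replicate 1 or 3 (-0.42 to -0.35). Passing in GFP+ and not in GFP- is no difference in itself, so the difference of the 2 contrasts was tested. It was more positive in GFP+ cells for 29 genes (0.230%) and more negative for 48 (0.381%). Of the 29, 27 were higher in GFP+ HC, and all 48 were lower in GFP+ HC. The tested difference contains the GFP+ contrast, so these directions were in part built into the choice of genes.

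Of the 22 macrophage genes, 0 passed the test of the difference. That is near the share of all tested genes (0.230% and 0.381%), so it says little about the list. In GFP- cells 21 of the 22 macrophage genes were also higher in HC, with a median of 3.60, where 2.48% of all tested genes were higher. Mrc1 was at 103, 29.5 and 83.9 FPKM in GFP- HC and 1.47, 2.004 and 1.46 in GFP- EC. The list level in GFP- HC was 5.24, 3.82 and 5.004, of which 3.82 lay just below the lowest GFP+ HC library (3.90) and the others between the GFP+ HC libraries. The connexin contrast was also present without the reporter, with Gja5 at 4.75, 6.79 and 6.09 FPKM in GFP- HC against 41.6, 43.5 and 36.0 in GFP- EC (-2.60, adjusted p = 4.46e-05). The difference between the contrasts was -0.39 for Gja5 (adjusted p = 0.578). Runx1 gave 1.70 in GFP- cells and a difference of 1.18 (adjusted p = 0.232).

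The 29 included Gpr56, Myb, Spn and Flt3, described above. Gpr56 was at 6.57, 8.74 and 6.90 FPKM in GFP- HC and 5.43, 4.82 and 7.75 in GFP- EC, which overlap, so that the difference of the contrasts was 2.08 ± 0.26 (adjusted p = 0.00602). Myb was at 1.99, 1.96 and 2.05 FPKM in GFP- HC and 0.370, 0.337 and 0.0532 in GFP- EC, and the difference was 2.08 ± 0.28 (adjusted p = 0.00855). For Spn the difference was 1.49 (adjusted p = 0.0105) and for Flt3 1.53 (adjusted p = 0.0105). With a pseudocount of 0.1 the calls of Myb, Spn and Flt3 ended (1.56, 1.23 and 2.37), and those of Myb and Spn also ended over genes of a mean FPKM of 5 or more. Mpo was at 3.37, 6.78 and 4.16 FPKM in GFP- HC and 0.599, 1.08 and 1.03 in GFP- EC, a difference of 1.84 ± 0.35 (adjusted p = 0.0481), a call lost in 15 of 20 alternatives (1.64 to 2.03), among them a pseudocount of 0.1, a mean FPKM of 5 or more and any 1 of the 12 libraries left out except GFP- HC replicate 2. Pstpip1, a cytoskeletal adaptor, gave 1.74 (adjusted p = 0.0337), Treml2, a myeloid and B cell receptor, 1.71 (adjusted p = 0.0159), and Dapp1, a phosphoinositide adaptor, 1.56 (adjusted p = 0.0159). The call of Pstpip1 was lost in 12 of 19 alternatives (1.54 to 2.22), among them a pseudocount of 0.1 and any 1 of GFP+ HC replicates 1 to 3. The calls of Treml2 and Dapp1 were lost in 4 alternatives each, GFP+ HC replicate 2 and GFP+ EC replicate 1 among the libraries left out (1.65 and 1.59 for Treml2, 1.58 and 1.55 for Dapp1), and that of Treml2 also with a pseudocount of 0.1 (2.27). Gmfg also passed at 1.15 (adjusted p = 0.00487), with GFP- HC at 95.9, 107 and 93.1 FPKM and GFP- EC at 88.5, 83.6 and 83.5, both far above GFP+ EC.

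Matrix genes were among the largest of the 48, and 7 of the 38 on the matrix list were among them, against 0.381% of all tested genes. Htra1, Pi16 and Lamc3, given below, are not on that list. Fbln5 was at 1.95, 1.14 and 1.91 FPKM in GFP- HC and 1.87, 1.38 and 2.87 in GFP- EC, against 24.8 to 38.6 in GFP+ EC, a difference of -2.67 ± 0.35 (adjusted p = 0.00681). Htra1 was at 3.42, 2.75 and 3.54 FPKM in GFP- HC and 6.46, 3.71 and 6.62 in GFP- EC, a difference of -2.45 ± 0.27 (adjusted p = 0.00403). Fbn1, encoding the microfibril protein fibrillin-1, was at 12.5, 8.46 and 13.0 FPKM in GFP- HC and 9.04, 7.91 and 8.88 in GFP- EC, a difference of -2.03 ± 0.20 (adjusted p = 0.00271). For these genes GFP+ EC stood above the other 3 populations. Pi16, a secreted peptidase inhibitor, gave -2.29 (adjusted p = 0.00487), Lamc3, a laminin chain, -2.19 (adjusted p = 0.00306), and Pde3a, a phosphodiesterase, -2.29 (adjusted p = 0.0175). The call of Pde3a ended without any 1 of 6 libraries, 4 of them GFP+ (-2.30 to -2.18), and with a pseudocount of 0.1 (-2.61). Eln gave -2.32 ± 0.45 (adjusted p = 0.0489), a call lost in 15 of 20 alternatives (-2.51 to -2.03), a pseudocount of 0.1 and a mean FPKM of 5 or more among them. The arterial genes Hey2 (-1.82, adjusted p = 0.0159), Unc5b (-1.28, adjusted p = 0.00487), Sema3g (-1.24, adjusted p = 0.0428) and Jag1 (-1.18, adjusted p = 0.0105) were in the set too, as were Bmp6 (-1.97, adjusted p = 0.00487) and Smad6 (-1.08, adjusted p = 0.0105). The calls of Hey2 and Sema3g were lost in 8 and 13 of 20 alternatives, any 1 of the 3 GFP+ EC libraries (-1.85 to -1.77 and -1.27 to -1.20) and a pseudocount of 0.1 (-1.78 and -1.24) among them. The call of Bmp6 ended with a mean FPKM of 5 or more.

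**Figure D5:**
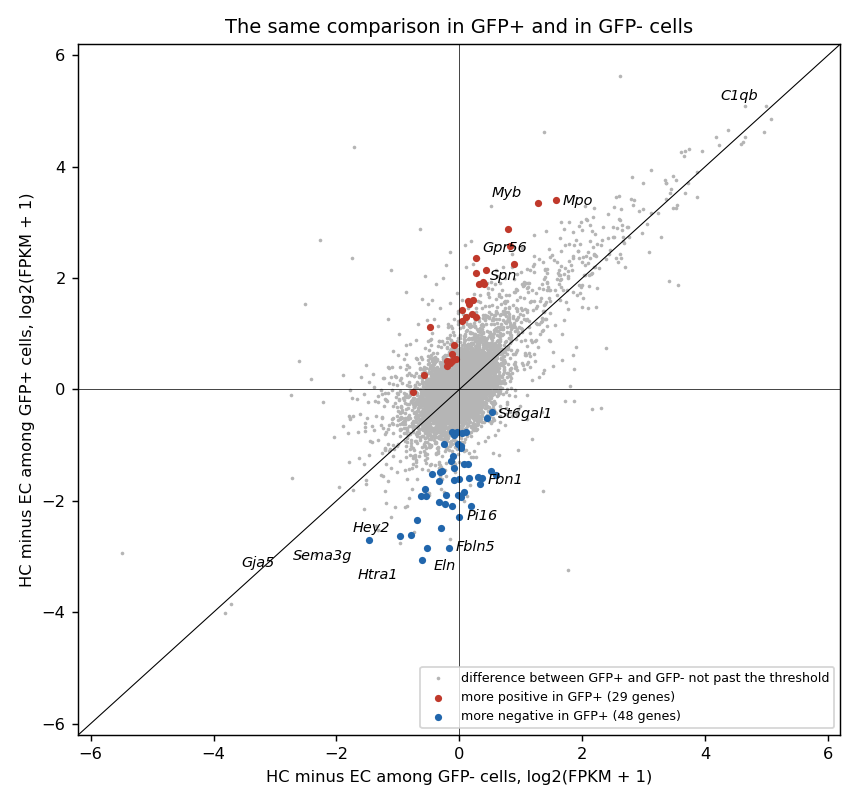
Difference HC minus EC among GFP+ cells (y axis) against the same among GFP- cells (x axis), both in log2(FPKM + 1), 1 point per tested gene, with the line of equality. Red marks the 29 genes with a more positive and blue the 48 with a more negative difference in GFP+ cells; C1qb and Gja5 lie near the line, while Gpr56, Myb, Fbln5 and Htra1 lie away from it.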

How the data were processed

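The authors deposited FPKM values per gene symbol for 12 libraries of poly(A)-selected RNA (NEBNext Ultra, per the labels' protocols). Build mm9 and the tools Cufflinks, featureCounts, edgeR and DESeq are named in the submitters' processing notes, and roles, versions and scaling steps are not given in the sources. FPKM values were not multiples of whole reads, so depth could not be recovered and a count test was not possible. The precision of a difference rests on the spread between libraries of the same group, estimated over all 12 libraries. FPKM is relative within a library.

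Genes that reached FPKM 1 in 3 or more of the 6 GFP+ libraries entered limma (version 3.58.1, R 4.3.3) on the log2(FPKM + 1) scale: 4 group means over all 12 libraries, 8 residual degrees of freedom, an intensity trend, two-sided tests, and Benjamini-Hochberg adjustment over 12584 genes with a threshold of 0.05. The procedure was tested on simulated data. Groups and replicate numbers came from the sample titles. The 3 libraries of each group were treated as independent pools. GFP+ HC and GFP+ EC came from the same set of 122 embryos. The titles do not say whether same-numbered libraries share embryos.

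The members and the 30 gene lists were chosen with earlier results of these data known. Lists are described by counts and medians, with no set test. Named genes were the sort and identity markers, the 10 largest rises and 10 largest falls whose higher group averaged FPKM 5 or more, without overlap of the groups, the 6 largest differences between GFP+ and GFP- in each direction, and up to 4 members per list by p with the best in the other direction; not all that missed the threshold are described, and a few genes are not reported here. List symbols without a row of that name were not analysed here. Promoters came from RefSeq (GRCm38.p6) by symbol, with none of the files' mm9 coordinates used. Of the higher, lower and all tested genes, 77.5%, 76.3% and 77.1% had one, so each set lacked some promoters. A comparison of motifs between gene sets was not made. Alternatives were a pseudocount of 0.1, other filters and scalings, the replicate number as a block, no trend, the 6 libraries alone, and leaving out each library.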

Additional observations from a re-analysis of the deposited data

Results flagged for a closer look

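The contrast of HC and EC differed between GFP+ and GFP- cells by limma's test of the difference for 29 genes in the positive and 48 in the negative direction. Among the named genes the differences were 2.08 for Gpr56, 2.08 for Myb, 1.84 for Mpo, 1.74 for Pstpip1, 1.71 for Treml2 and 1.56 for Dapp1. They were 1.49 for Spn, 1.53 for Flt3 and 1.15 for Gmfg. In the negative direction they were -2.67 for Fbln5, -2.45 for Htra1, -2.32 for Eln, -2.29 for Pi16, -2.29 for Pde3a and -2.19 for Lamc3. Further negative differences were -2.03 for Fbn1, -1.82 for Hey2, -1.28 for Unc5b, -1.24 for Sema3g, -1.18 for Jag1, -1.97 for Bmp6, -1.08 for Smad6 and -0.94 for St6gal1. All are on the log2(FPKM + 1) scale.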

How the results depend on the processing

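Counts of genes higher in HC ranged from 752 to 1090 and of lower genes from 560 to 1104 over all alternatives; leaving out 1 library gave 752 to 1036 and 560 to 699. No named gene past the threshold turned its direction, and of 119 named genes past the threshold 95 kept their call in every alternative. Over all genes, same-numbered GFP+ HC and GFP+ EC libraries deviated together only weakly, at r = 0.0666, 0.0418 and 0.0507. Of 6 libraries, 2 correlated best with their own number. With 3 libraries per group these values cannot show that the samples were unpaired. The macrophage list level had the same replicate order in both groups (5.20, 3.90 and 6.07 in HC, 1.39, 1.20 and 1.92 in EC). The interferon list level did not (3.52, 3.27 and 4.45 in HC, 2.80, 2.96 and 3.12 in EC). Same-numbered GFP+ and GFP- libraries were not correlated in this way. Replicate 2 had the lowest macrophage list level in GFP+ HC and in GFP- HC (3.90 and 3.82). With the replicate block, 1079 genes were higher and 836 lower, of which 976 and 758 were called without it, and the difference between GFP+ and GFP- was past the threshold for 21 genes in the positive and 55 in the negative direction. The count of interferon genes higher in HC went from 5 to 9 with the replicate block. The counts of genes that differed between GFP+ and GFP- moved most. The 29 genes in the positive direction became 11 with a pseudocount of 0.1 and 11 with a mean FPKM of 5 or more, and leaving out 1 of the 12 libraries gave 7 to 34, with 7 without GFP+ HC replicate 2. The 48 in the negative direction became 26 with a pseudocount of 0.1, 28 with a mean FPKM of 5 or more, 129 when libraries were scaled to equal sums and 76 with quantile normalization, and leaving out 1 library gave 22 to 51, with 22 without GFP+ HC replicate 2 or GFP+ EC replicate 3; the cause was not tested. Of 23 genes named for that difference, 10 passed in every alternative that tested them: Gpr56, Gmfg, Fbln5, Htra1, Pi16, Lamc3, Fbn1, Unc5b, Jag1 and Smad6. A pseudocount of 0.1 ended the calls of Spn, Flt3, Myb, Mpo, Pstpip1 and Treml2 (1.23, 2.37, 1.56, 2.03, 2.22 and 2.27) and of Eln, Pde3a, Hey2 and Sema3g (-2.30, -2.61, -1.78 and -1.24), and a mean FPKM of 5 or more ended those of Spn, Myb, Mpo, Eln and Bmp6. Depth is unknown, so the precision of low values cannot be set from read numbers. Promoter motifs were not compared between gene sets, and the alternative for that comparison was not run.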
